A study of Rattus norvegicus with 12 samples.

Results

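The genes Fos, Fosb, Fosl1, Fosl2, Jun, Junb, Jund, Atf3, Egr1 and Egr2 were followed in RNA of rat cells that the labels call primary hepatic stellate cells, the matrix-making cells of the scarred liver, after co-culture with human amniotic cells. They were chosen by symbol, and all 10 were found among the 32623 genes of the count files, each on 1 row. All 10 passed the default expression filter that left 13539 genes for testing. The cells were isolated on a density gradient, with no sort by marker named in the labels, from rats made cirrhotic by inhaled carbon tetrachloride. They were co-cultured for 24 h through Transwell inserts, porous cups that let soluble products pass but hold cells back. The groups were co-culture with human amniotic epithelial cells (hAEC, libraries 3, 4, 11 and 12), with human amniotic mesenchymal stromal cells (hAMSC, libraries 7, 8, 15 and 16) and a control labelled Veh (libraries 17, 18, 19 and 20), read here as vehicle, for which the labels do not say what the insert held. The labels give 15000 viable cells for the co-cultures and name no separate animal or culture for any library, so the p-values rest on a spread that may be technical. The identifiers in the files are ENSRNOG00000008015 (Fos), ENSRNOG00000046667 (Fosb), ENSRNOG00000020552 (Fosl1), ENSRNOG00000052357 (Fosl2), ENSRNOG00000026293 (Jun), ENSRNOG00000042838 (Junb), ENSRNOG00000019568 (Jund), ENSRNOG00000003745 (Atf3), ENSRNOG00000019422 (Egr1) and ENSRNOG00000000640 (Egr2).

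AP-1 is a dimer of basic leucine zipper proteins, in which a JUN protein pairs with a FOS or ATF protein and binds DNA. Fos, Fosb, Egr1 and Egr2 are immediate early genes, switched on within minutes by growth factors, endotoxin or stress through MAP kinases and serum response factor, and most of their RNAs decay quickly. Fosl1 and Fosl2 encode FOS-like proteins that last longer, Jun, Junb and Jund encode the JUN partners, Atf3 is a stress-induced repressor of inflammatory genes in macrophages, and the zinc finger factors EGR1 and EGR2 act in macrophage differentiation and activation. In stellate cells, JUND and FOSL2 are known as drivers of matrix genes in fibrosis.

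The promoters that the results below refer to are shown for the pair of EGR genes and for Fosl1, the member with the largest difference with hAMSC. RefSeq promoter windows (build GRCr8, 250 bases before to 50 after the start of the gene, 5′ to 3′ on the gene's strand) matched 7 of the 10 genes. No window was at hand for Fos, Jun and Atf3, so these were not searched. The coordinates are those of GRCr8, while the files' build is Rnor_6.0. Capitals mark the serum response element core, known as the CArG box, which serum response factor binds.
Egr1 promoter (chr18:26736828-26737127, + strand): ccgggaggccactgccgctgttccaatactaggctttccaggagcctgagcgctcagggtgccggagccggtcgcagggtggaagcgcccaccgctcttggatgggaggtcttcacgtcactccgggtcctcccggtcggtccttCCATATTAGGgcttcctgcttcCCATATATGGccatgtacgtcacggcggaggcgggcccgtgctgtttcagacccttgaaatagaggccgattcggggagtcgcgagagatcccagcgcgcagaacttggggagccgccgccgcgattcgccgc
Egr2 promoter (chr20:21054392-21054691, - strand): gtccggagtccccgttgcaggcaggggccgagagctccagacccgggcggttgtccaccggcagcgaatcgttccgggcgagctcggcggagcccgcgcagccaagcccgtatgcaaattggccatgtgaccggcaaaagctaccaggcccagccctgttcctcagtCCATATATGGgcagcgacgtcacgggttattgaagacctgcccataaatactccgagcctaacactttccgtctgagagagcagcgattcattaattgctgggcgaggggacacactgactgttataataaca
Fosl1 promoter (chr1:212183635-212183934, + strand): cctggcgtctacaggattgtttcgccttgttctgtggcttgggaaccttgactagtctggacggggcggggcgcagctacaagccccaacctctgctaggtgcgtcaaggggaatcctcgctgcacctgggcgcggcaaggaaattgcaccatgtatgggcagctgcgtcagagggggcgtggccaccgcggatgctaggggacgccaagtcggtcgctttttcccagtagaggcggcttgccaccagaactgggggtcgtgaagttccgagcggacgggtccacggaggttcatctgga
The Egr1 window holds 2 CArG boxes, CCATATTAGG and CCATATATGG, and the Egr2 window holds 1, the same CCATATATGG. In both genes CCATATATGG lies at the same place, its leading base 83 bases before the start. Both strands were searched, and 1.64% of all 33469 windows hold a CArG box. The Fosl1 window holds no CArG box, no AP-1 site (TGANTCA), no cAMP response element (TGACGTCA) and no EGR site (GCGTGGGCG or GCGGGGGCG) in these letters. Of the other 4 windows, that of Jund holds TGACGTCA and GCGTGGGCG, and that of Fosl2 holds GCGGGGGCG. Over all windows 7.33% hold an AP-1 site, 1.83% a cAMP response element and 3.2% an EGR site, and none of the members' 7 windows holds TGANTCA. Such matches describe the letters of these windows and no binding.

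Total counts ran from 27382724 to 34922211 per library. Across the groups, the libraries parted into a higher-numbered set (11, 12, 15, 16, 19 and 20) and a lower-numbered set (3, 4, 7, 8, 17 and 18), each with 2 libraries of every group. The labels do not name these sets. They were seen in the data, so differences between them are given with no test. Of the tested genes 14.5% differed by over 1 log2 unit between the sets, and for 54.9% the sets did not overlap. The label was checked against marker lists. Levels are given in CPM, counts scaled to a common library size and not per length. Of 13 stellate and myofibroblast genes 3 failed the expression filter, Lrat, the retinyl ester synthase of stellate cells, was at 0 to 0.371 CPM, and the median marker averaged 1.68 CPM. All 16 macrophage genes in the files passed the filter, with a median of 571 CPM, and Cd68, found in macrophage lysosomes, was at 1525 CPM or more in every library. Of the 13 stellate genes, 12 stayed under 10 CPM in every library. The exception was Reln, reelin, at 6.71 to 15.4 CPM in the higher-numbered and 54.8 to 92.2 CPM in the lower-numbered set, which made up most of the summed list in the lower-numbered set. The summed macrophage list lay at 45259 to 47869 CPM in the higher-numbered set and at 22155 to 24673 CPM in the lower-numbered set. Its genes did not all go that way: Lyz2 (at least 8398 against at most 1195 CPM) and Gpnmb (at least 24418 against at most 15950.1 CPM) were higher in the higher-numbered set, and Cd14 (167 to 217 against 932 to 1080 CPM) and Marco (34.0 to 48.1 against 98.8 to 115 CPM) were lower. In the same order, the lymphocyte list summed to 1585 to 1709 against 379 to 429 CPM, nearly all of it Cd4, the hepatocyte list to 8.47 to 14.7 against 87.2 to 97.2 CPM, with Ass1 at 6.50 to 7.95 against 82.9 to 86.9 CPM, and the neutrophil list to 11.5 to 15.4 against 2.99 to 4.42 CPM, with Csf3r at 9.71 CPM or more against 0.851 CPM or less. The part of these lists in the set differences of the members was not tested. In such bulk samples fewer cells of a type and less RNA per cell cannot be told apart.

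The largest differences among the members lay between the library sets. In the higher-numbered against the lower-numbered set, 5 members were lower without overlap: Fosl1, Egr2, Junb, Fosl2 and Jund. Fos and Egr1 were higher without overlap, and Jun, Atf3 and Fosb overlapped. The sets did not overlap for 54.9% of all tested genes either, so such gaps were common and do not set the members apart. Egr2 lay at 37.4 to 46.2 CPM in the higher-numbered set, against 197 to 217 CPM in the lower-numbered set (log2 difference of the means -2.33). Fosl1 lay at 1.52 to 2.71 CPM, against 11.1 to 18.1 CPM (-2.72), and Junb, a JUN protein that restrains JUN in many cells, at 57.3 to 89.3 CPM, against 179 to 214 CPM (-1.51). Il1b, an inflammatory cytokine gene of the target list named here after its values were seen, averaged 45.6 CPM in the higher-numbered and 682 CPM in the lower-numbered set. The genes of that list did not all go that way, and the numbers each way were not counted. Plau (579 to 646 against 148 to 177 CPM) and Spp1 (2205 to 2528 against 1682 to 1862 CPM) were higher in the higher-numbered set, as was Timp1.

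Fos ran the other way from Fosl1, Egr2 and Junb. It lay at 5.36 to 7.51 CPM in the higher-numbered set, against 1.17 to 1.84 CPM in the lower-numbered set (log2 2.04). Egr1 was higher too, at 19.4 to 23.6 CPM against 12.9 to 16.4 CPM (0.61). Egr3, a related EGR gene that is no member, averaged 8.71 CPM in the higher-numbered and 1.75 CPM in the lower-numbered set. Egr1 and Egr2 thus stood in opposite order between the sets. Both windows shown above hold CCATATATGG, and the part of this site in their levels was not tested.

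Jun and Atf3 were nearly level between the sets. Jun averaged 127 ± 10.6 CPM in the higher-numbered and 130.4 ± 5.30 CPM in the lower-numbered set (SD, n = 6 each). Atf3 averaged 119 ± 2.56 and 124 ± 16.3 CPM in the same order, with a wider spread in the lower-numbered set. Jund (32.2 to 47.7 against 49.9 to 59.0 CPM, log2 -0.51) and Fosl2 (4.23 to 6.20 against 10.6 to 13.4 CPM, log2 -1.20) were lower in the higher-numbered set. Fosb overlapped between the sets and had 3 to 18 counts per library, too few to read a difference.

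**Figure D1:**
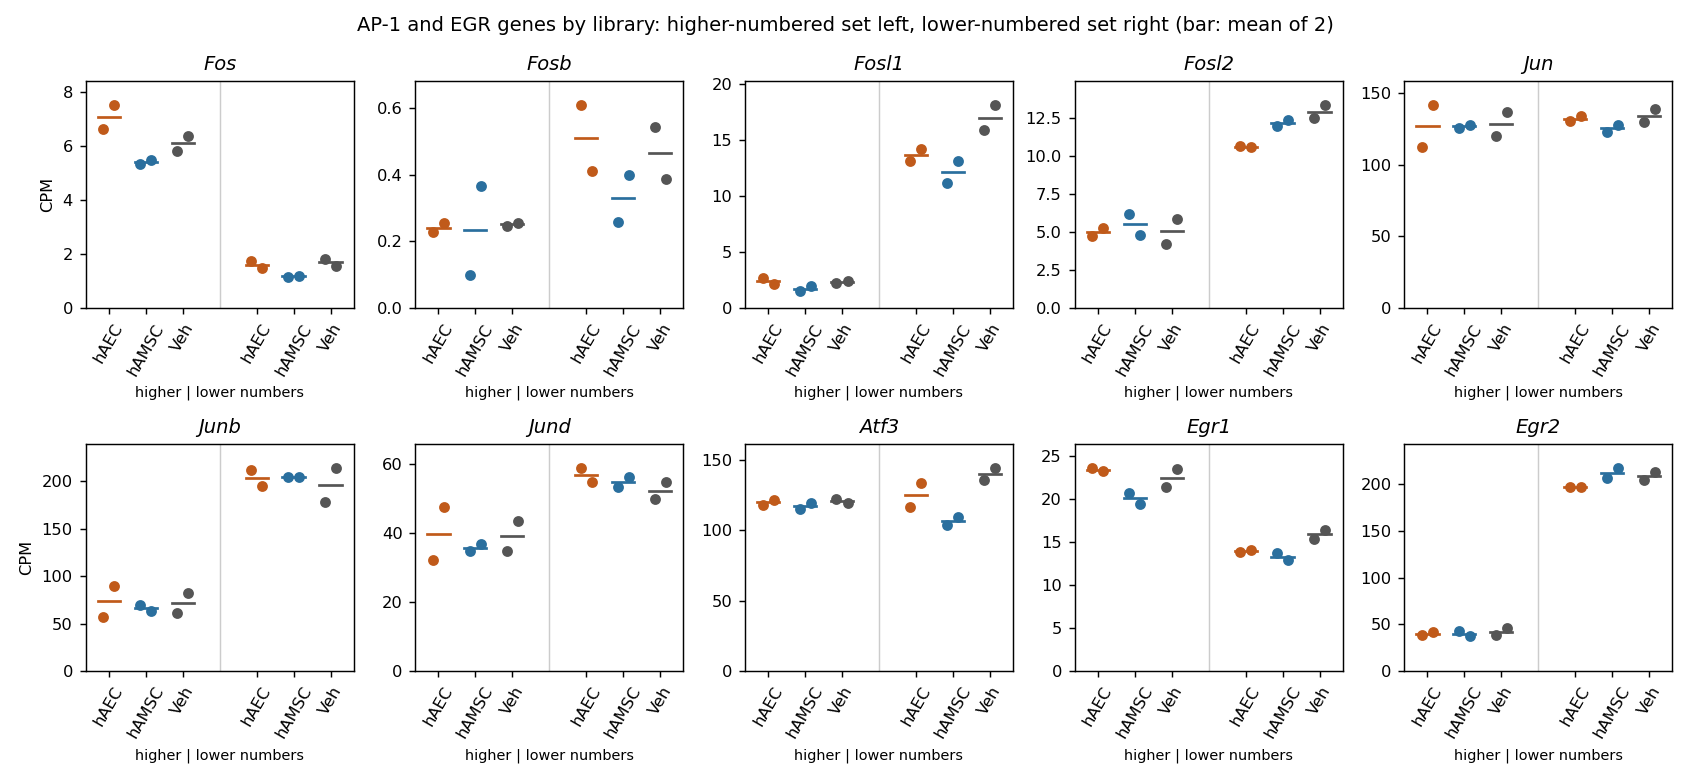
CPM of each of the 10 genes in each of the 12 libraries (points), with the mean of the 2 libraries of a group in a set (bars); the higher-numbered set stands left and the lower-numbered set right in each panel. Egr2, Junb and Fosl1 are low on the left and high on the right, Fos is high on the left, and Jun and Atf3 stand at like levels on both sides.

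Within the sets, hAMSC co-culture went with lower values of Fosl1, Fos, Atf3 and Egr1, none of which passed the test over all genes. With the set as a term in 1 model over 12 libraries, the quasi-likelihood test of edgeR (Benjamini-Hochberg adjustment over all tested genes) called 0 of the 10 members for hAMSC against vehicle at an adjusted p of 0.05, where it called 0.236% of all genes (32 of 13539). At an unadjusted p under 0.05 there were 4 of 10 members, against 9.68% of all genes. In these same 4 members both hAMSC libraries lay below both vehicle libraries in each set, as did 4.47% of all genes. In 0 members both lay above, against 3.94% of all genes. The members' median log2 fold change was -0.13, with 1 of 10 above 0, and that of all genes was -0.003, with 48.9% above 0. The members were chosen with earlier results known, and genes of 1 pathway are not independent, so these shares are a description.

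Fosl1, an AP-1 partner linked to cell migration and invasion, had the largest difference. In the higher-numbered set it was at 1.52 and 1.98 CPM with hAMSC, against 2.26 and 2.41 CPM with vehicle. In the lower-numbered set it was at 11.1 and 13.2 CPM with hAMSC, against 15.9 and 18.1 CPM with vehicle. The groups did not overlap in either set, and the gap was of like size on the log2 scale (-0.43 and -0.49). The fitted level with hAMSC was 0.728 of that with vehicle (log2 -0.46, SE 0.12, 95% interval -0.71 to -0.21; edgeR with Benjamini-Hochberg, adjusted p = 0.147).

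Fos was at 5.36 and 5.50 CPM with hAMSC in the higher-numbered set, against 5.82 and 6.39 CPM with vehicle. In the lower-numbered set it was at 1.17 and 1.20 CPM, against 1.84 and 1.58 CPM, which is 39 to 52 counts in a library of that set. All hAMSC libraries lay below the vehicle libraries of their set (log2 -0.32, SE 0.13, interval -0.60 to -0.04; edgeR with Benjamini-Hochberg, adjusted p = 0.437).

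Egr1 was at 20.8 and 19.4 CPM with hAMSC in the higher-numbered set, against 21.4 and 23.5 CPM with vehicle. In the lower-numbered set the values were 13.7 and 12.9 CPM with hAMSC, against 15.4 and 16.4 CPM with vehicle. The groups were apart in both sets by small margins (log2 -0.21, SE 0.07, interval -0.35 to -0.07; edgeR with Benjamini-Hochberg, adjusted p = 0.278). Egr2 had no such gap: its fold change was -0.02 with an interval of -0.14 to 0.09, and hAMSC and vehicle libraries overlapped in both sets.

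Atf3 differed mainly in the lower-numbered set. There it was at 104 and 109 CPM with hAMSC, against 136 and 144 CPM with vehicle. In the higher-numbered set it was at 115 and 119.7 CPM with hAMSC, against 122 and 119.9 CPM with vehicle, so the groups were apart by under 1 CPM at their nearest. Over both sets the log2 fold change was -0.22 (SE 0.06, interval -0.36 to -0.08; edgeR with Benjamini-Hochberg, adjusted p = 0.238). Fitted in the lower-numbered set alone, 2 libraries against 2, Atf3 passed (log2 -0.39, adjusted p = 0.0324), and in the higher-numbered set alone it did not (-0.04, adjusted p = 0.936). Over all genes these fits called 86 genes in the lower-numbered and 94 in the higher-numbered set. The test of the difference itself, as an interaction of hAMSC with the set, gave 0.35 in log2 units for the higher-numbered minus the lower-numbered set (SE 0.09, interval 0.16 to 0.55). It did not pass with the expression filter (edgeR with Benjamini-Hochberg, adjusted p = 0.146) and passed without it (adjusted p = 0.00995). Without the filter this interaction called 533 genes, against 27 with it. Of all genes 0.199% passed this interaction test with the filter, and 0 of the 10 members. At an unadjusted p under 0.05 it was 1 of 10 members, Atf3, against 10% of all genes.

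**Figure D2:**
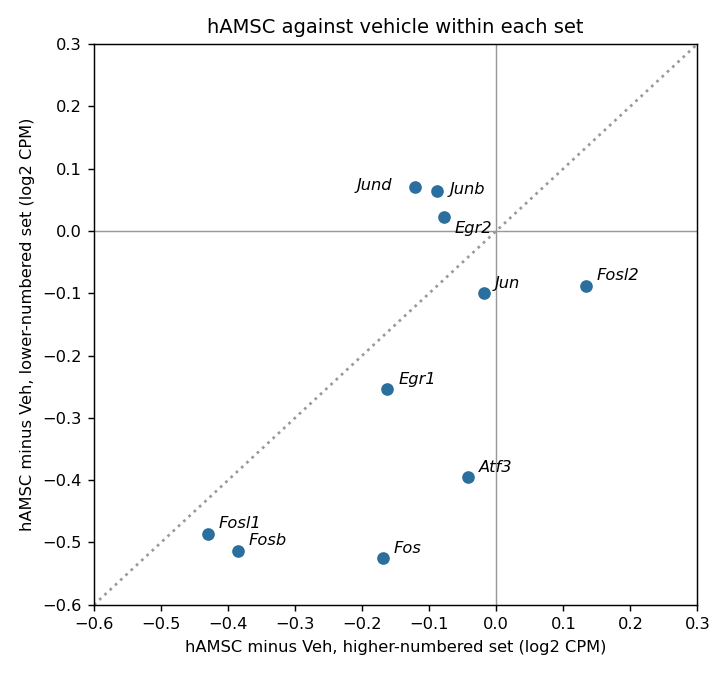
Difference in mean log2 CPM between hAMSC and vehicle for each of the 10 genes in the higher-numbered set (horizontal axis) and in the lower-numbered set (vertical axis), 2 libraries a group in each set; the dotted line marks equal differences. Fosl1 lies near the line at -0.43 and -0.49, while Atf3 is at -0.04 and -0.40.

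The JUN genes stood close to vehicle with hAMSC. The log2 fold changes of hAMSC against vehicle were -0.06 for Jun (interval -0.19 to 0.07), -0.02 for Junb (-0.35 to 0.31) and -0.03 for Jund (-0.28 to 0.23). The interval of Jun leaves room for changes of up to 0.19 log2 units, and those of Junb and Jund for larger ones. Over 4 libraries, Jun averaged 129 ± 12.3 CPM with hAEC, 126 ± 2.24 CPM with hAMSC and 131 ± 8.33 CPM with vehicle (SD, n = 4 each). Fosl2 (0.009, interval -0.22 to 0.24) and Fosb (-0.33, interval -1.19 to 0.52) completed the members, and neither reached an unadjusted p of 0.05.

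Markers of other cell types were read in the same libraries. The summed level of the endothelial list was 478 to 543 CPM with hAMSC in the higher-numbered set, against 401 to 413 CPM with vehicle, and 616 to 751 CPM against 702 to 728 CPM in the lower-numbered set. The 11 endothelial markers, among them Kdr, Cdh5 and Tie1, all had a positive log2 fold change with hAMSC, and 0 of them passed. Their interaction of hAMSC with the set was also above 0 for all 11 (median 0.71), and 0 passed. In the lower-numbered set hAMSC and vehicle overlapped for Kdr (24.3 and 32.6 against 25.2 and 25.4 CPM) and Cdh5 (163 and 187 against 179 and 183 CPM). Tie1 overlapped there too (155.5 and 176.89 against 172.2 and 176.86 CPM). The summed macrophage list was at 45958 to 46716 CPM with hAMSC against 45259 to 47869 CPM with vehicle in the higher-numbered set, and at 23738 to 24673 against 22155 to 23830 CPM in the lower-numbered set. Stellate genes summed to 33.1 to 33.3 against 31.1 to 34.0 CPM, and to 70.1 to 91.5 against 87.2 to 110 CPM, in the same order. The hepatocyte list was below vehicle without overlap in both sets, at 8.47 to 10.4 CPM with hAMSC against 11.3 to 11.5 CPM with vehicle and at 87.2 to 91.8 against 93.6 to 97.2 CPM. All 4 of its tested genes had a log2 fold change below 0 (-1.15 to -0.02, median -0.88), as had Fosl1, Fos, Atf3 and Egr1. Of these 4 hepatocyte genes 0 passed. In the lower-numbered set most of the sum was Ass1, and the median gene of the list averaged 0.185 CPM. The lymphocyte list was at 1585 to 1590 CPM with hAMSC against 1682 to 1709 CPM with vehicle in the higher-numbered set and at 381 to 429 against 379 to 408 CPM in the lower-numbered set. The neutrophil list was at 11.5 to 11.6 against 13.9 to 15.4 CPM and at 3.78 to 4.18 against 4.01 to 4.33 CPM, so that both lists were below vehicle in the higher-numbered set and overlapped it in the other. Of the 16 macrophage genes 1 passed for hAMSC against vehicle: Cd163, a haemoglobin scavenger receptor, which rose (log2 0.61, SE 0.09; adjusted p = 0.0277 by edgeR with Benjamini-Hochberg). The part of these lists in the differences of the members was not tested.

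With hAEC, the members stood close to vehicle in the fit over both sets. The same fit called 0 of 10 members for hAEC against vehicle, and 0% of all genes. At an unadjusted p under 0.05 there were 0 of 10 members, against 5.61% of all genes, and in no member were the groups apart the same way in both sets, against 4.39% of all genes upward and 3.6% downward. The log2 fold changes ran from -0.17 to 0.09, with a median of -0.04, and that of all genes was -0.003. Fosl1 was at 2.71 and 2.16 CPM with hAEC against 2.26 and 2.41 CPM with vehicle in the higher-numbered set, and at 13.1 and 14.2 against 15.9 and 18.1 CPM in the lower-numbered set. It lay below vehicle in the lower-numbered set and overlapped it in the other (log2 -0.17, SE 0.12, interval -0.41 to 0.08; edgeR with Benjamini-Hochberg, adjusted p = 0.92). Egr1 did likewise, at 23.6 and 23.2 against 21.4 and 23.5 CPM, and at 13.9 and 14.1 against 15.4 and 16.4 CPM (-0.06, interval -0.20 to 0.08). Fosl2 (-0.16, interval -0.39 to 0.08), Atf3 (-0.09, interval -0.23 to 0.04) and Egr2 (-0.08, interval -0.20 to 0.04) also lay below vehicle in the lower-numbered set and overlapped it in the other. For Egr2 the gap itself was of like size, -0.081 in the lower-numbered and -0.075 in the higher-numbered set. Fos went the other way from these genes: it was above vehicle in the higher-numbered set, at 6.65 and 7.51 CPM with hAEC against 5.82 and 6.39 CPM with vehicle (log2 0.21), and overlapped it in the lower-numbered set. The share of all genes apart in a single set was not counted, so these gaps of 2 libraries against 2 do not set the members apart. The intervals of Fos (-0.19 to 0.36), Junb (-0.28 to 0.37) and Jund (-0.18 to 0.33) held 0, as did that of Jun (-0.15 to 0.11), and Fosb, with few counts, had the widest one (-0.77 to 0.88). The interaction with the set called 0 of 10 members and 0% of all genes, and at an unadjusted p under 0.05 it was 0 of 10 members against 5.4% of all genes. Fitted by edgeR in the lower-numbered set alone, 3 of 10 members had an unadjusted p under 0.05 for hAEC, as for hAMSC. In the higher-numbered set alone it was 0 of 9 for each, and the shares of all genes in these fits were not counted.

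Between the co-cultures, Fos and Egr1 were higher with hAEC than with hAMSC in both sets, and neither passed. The fit called 0 of 10 members and 0.0222% of all genes. At an unadjusted p under 0.05 there were 3 of 10 members, Fos, Fosl1 and Egr1, against 6.37% of all genes. For 2 of 10 members both hAEC libraries lay above both hAMSC libraries in each set, as for 3.69% of all genes, and for 0 of 10 both lay below, against 3.84% of all genes. Fos was at 6.65 and 7.51 CPM with hAEC against 5.36 and 5.50 CPM with hAMSC in the higher-numbered set, and at 1.75 and 1.48 against 1.17 and 1.20 CPM in the lower-numbered set. Its fitted level with hAEC was 1.33 times that with hAMSC (log2 0.41, SE 0.13, interval 0.13 to 0.68; edgeR with Benjamini-Hochberg, adjusted p = 0.465). Egr1 was at 23.6 and 23.2 against 20.8 and 19.4 CPM, and at 13.9 and 14.1 against 13.7 and 12.9 CPM, so that the nearest libraries of the lower-numbered set were under 1 CPM apart (0.15, SE 0.07, interval 0.01 to 0.29; adjusted p = 0.746). Fosl1 overlapped between the co-cultures in the lower-numbered set (0.29, SE 0.12, interval 0.04 to 0.54; adjusted p = 0.663). Beside these values, endothelial markers summed to 391 to 395 CPM with hAEC against 478 to 543 CPM with hAMSC in the higher-numbered set and to 625 to 640 against 616 to 751 CPM in the lower-numbered set, and their part was not tested. The comparisons with vehicle share the vehicle libraries and those with hAMSC the hAMSC libraries, so they are not independent of each other. The interaction of this comparison with the set called 0 of 10 members and 0% of all genes, and Atf3 alone had an unadjusted p under 0.05 (-0.20, SE 0.09; adjusted p = 0.95 by edgeR with Benjamini-Hochberg), against 5.2% of all genes.

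**Figure D3:**
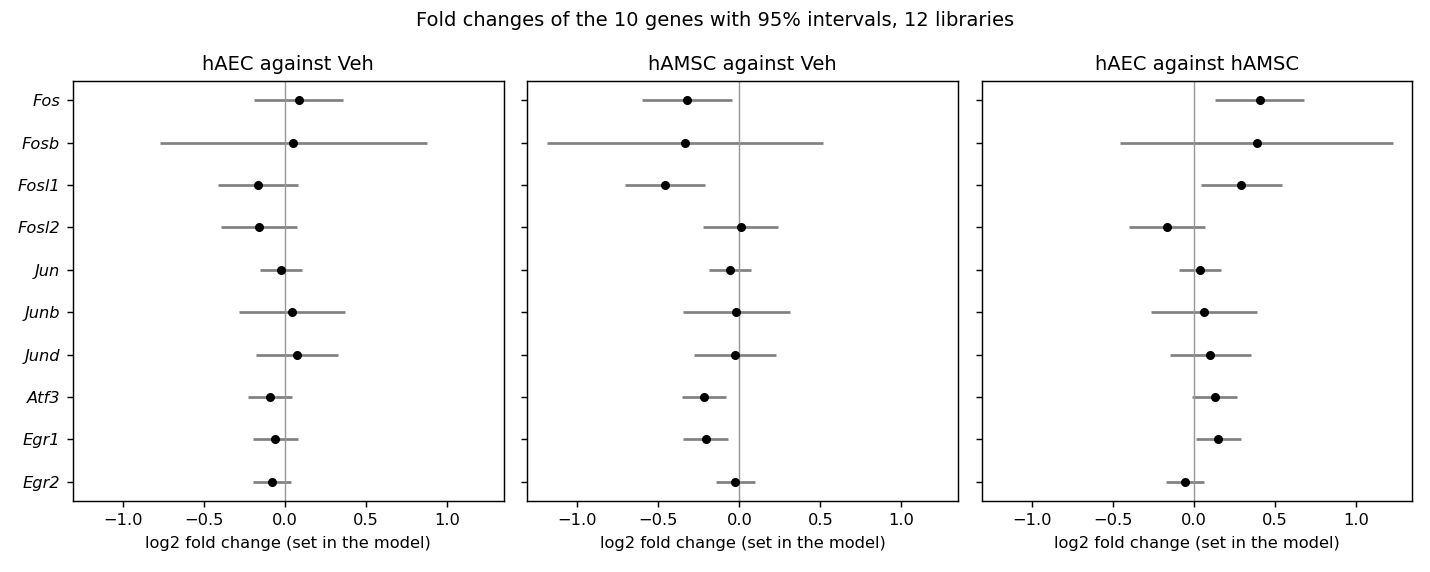
Log2 fold changes of the 10 genes (points) with 95% intervals (bars) from the fit with the library set over 12 libraries, for the 3 comparisons. With hAMSC against vehicle, the intervals of Fos, Fosl1, Atf3 and Egr1 lie below 0, and with hAEC against vehicle all 10 intervals include 0; none passed after adjustment over all genes.

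Among libraries of the same set, the JUN genes varied together. In the higher-numbered set Junb was at 57.3 CPM in hAEC 11 and 60.7 CPM in Veh 19, against 89.3 CPM in hAEC 12 and 82.2 CPM in Veh 20. Jun was at 112 and 120.1 CPM in hAEC 11 and Veh 19 and at 141 and 137 CPM in hAEC 12 and Veh 20, and Jund at 32.2 and 34.8 CPM against 47.7 and 43.6 CPM. The libraries of 1 group thus differed in these genes by more than the group means did. After the mean of each set was taken off, Pearson's r over the 12 libraries was 0.93 between Junb and Jund, 0.82 between Jun and Junb and 0.82 between Jun and Jund. Fos correlated with Egr1 at 0.71 and Fosl1 with Egr1 at 0.77 and with Atf3 at 0.72, while Junb and Fosl1 stood at -0.13. These libraries share their group, set and depth, so the values are a description. Among all genes with a mean of at least 5 CPM, the most alike by this measure were Csf2ra (0.98) for Junb, Gdf15 (0.96) for Jun, Map2k7 (0.92) for Fosl1, Rpsa (0.93) for Atf3, Endov (0.91) for Egr1, Abi3 (0.87) for Fos, Nfkb2 (0.93) for Egr2 and Bcl7b (0.93, the second after an unnamed clone) for Fosl2. Jund was nearest to LOC100911196 (0.95) and Fosb to Mrfap1 (0.905).

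No gene of the 7 lists passed in any of the 3 comparisons. Of 15 other bZIP factors 6 were above 0 for hAMSC against vehicle (median -0.06). The nearest to passing there were Atf4, the amino acid response factor (295 and 298 CPM with hAMSC against 332 and 316 CPM with vehicle in the higher-numbered set, 519.8 and 520.1 against 579 and 573 CPM in the lower-numbered set; log2 -0.14, SE 0.03, adjusted p = 0.112), and the haem-sensing repressor Bach1 (-0.13, adjusted p = 0.219), by edgeR with Benjamini-Hochberg. Bach1 was at -0.13 for hAEC too (adjusted p = 0.86), and Atf4 was at 0.14 for hAEC against hAMSC (adjusted p = 0.156). Of the 3 tested members of the EGR and NAB list, Nab1, which holds EGR factors in check, was at 0.12 for hAMSC (adjusted p = 0.364) and 0.15 for hAEC (adjusted p = 0.86), and Nab2 at -0.16 for hAMSC (adjusted p = 0.535). Egr3, the third, was at -0.44 for hAMSC (adjusted p = 0.538) and -0.28 for hAEC (adjusted p = 0.936), and between the co-cultures Nab2 was at 0.07 and Egr3 at 0.17 (adjusted p = 0.992 for both). Atf2, a partner of JUN, was at -0.11 for hAEC (adjusted p = 0.907), and Jdp2, a repressor of AP-1, at 0.15 for hAEC against hAMSC (adjusted p = 0.702).

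Upstream, 20 tested MAP kinase and serum response genes had a median of -0.004 for hAMSC and -0.003 for hAEC. Their smallest p for hAMSC were those of Map2k7, the kinase above JNK (-0.17, adjusted p = 0.326 by edgeR with Benjamini-Hochberg), and of the factor gene Creb1 (0.13, adjusted p = 0.445). For hAEC they were those of Map2k1 (0.08, adjusted p = 0.881) and Creb1 (0.09, adjusted p = 0.92), and for hAEC against hAMSC those of Elk3, a partner of serum response factor (0.09, adjusted p = 0.655), and Map2k1 (0.07, adjusted p = 0.857). Among 17 inhibitors of the pathway, with a median of 0.02 for hAMSC and -0.008 for hAEC, Dusp2, a phosphatase of MAP kinases, was at -0.21 for hAMSC (adjusted p = 0.391) and Rgs1, which shortens G protein signals, at 0.19 for hAEC (adjusted p = 0.86). Rgs1 was also nearest to passing between the co-cultures (hAEC against hAMSC 0.27, SE 0.05, adjusted p = 0.102), followed by Dusp2 (0.20, adjusted p = 0.626). Spred2 was at 0.19 for hAMSC (adjusted p = 0.56) and Dusp6 at 0.10 for hAEC (adjusted p = 0.881).

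Of 26 other immediate early genes 14 were above 0 for hAMSC (median 0.002) and 10 for hAEC (median -0.04). Nr4a2, a nuclear receptor induced by prostaglandins and endotoxin, had the smallest p for hAMSC (0.50, SE 0.12, adjusted p = 0.123 by edgeR with Benjamini-Hochberg). It was at 11.4 and 13.1 CPM with hAMSC against 7.09 and 7.78 CPM with vehicle in the higher-numbered set, and at 7.56 and 7.38 against 6.53 and 5.69 CPM in the lower-numbered set. It was above vehicle in both sets, where Fos and Egr1 were below it. Nr4a2 was at 0.33 for hAEC (adjusted p = 0.861), and Csrnp1 at -0.20 (adjusted p = 0.86). Klf10, induced by TGF-beta, was at 0.25 for hAMSC (adjusted p = 0.222) and at -0.15 for hAEC against hAMSC (adjusted p = 0.786), where Klf2 was at -0.47 (adjusted p = 0.855). In this list 1 gene passed the interaction of hAMSC with the set: Myc, a growth factor-induced regulator of cell division. Myc was at 37.5 and 34.2 CPM with hAMSC against 25.3 and 26.5 CPM with vehicle in the higher-numbered set, and at 122 and 135 against 133 and 139 CPM in the lower-numbered set, where the groups overlapped (interaction 0.56, SE 0.09, adjusted p = 0.0198 by edgeR with Benjamini-Hochberg).

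Of 26 genes widely described as AP-1 or EGR targets, 12 were above 0 for hAMSC (median -0.006) and 11 for hAEC (median -0.03). Hmox1, haem oxygenase, was nearest to passing for hAMSC (-0.20, SE 0.04, adjusted p = 0.0833 by edgeR with Benjamini-Hochberg), and its pattern over libraries was the third most like that of Atf3 (r = 0.91 over 12 libraries). Ccnd1, cyclin D1, was next (0.36, SE 0.08, adjusted p = 0.11). The r of Hmox1 with Atf3 rests on the same libraries as these fold changes, so it is a description and no separate evidence. For hAEC the chemokine gene Cxcl2 was at -0.29 (adjusted p = 0.86) and the protease gene Plau at 0.10 (adjusted p = 0.881). For hAEC against hAMSC the matrix protease gene Mmp9 was at -0.26 (adjusted p = 0.369) and Hmox1 at 0.14 (adjusted p = 0.466). The 12 heat shock genes had a median of 0.004 for hAMSC and -0.01 for hAEC, and 0 of them passed. Their smallest p belonged to Hspd1 (0.09) and Hspa8 (0.30) for hAMSC (adjusted p = 0.398 and 0.528), to Hsp90aa1 (-0.18) and Hspd1 (0.04) for hAEC (adjusted p = 0.92 and 0.936), and to Dnaja1 (-0.07) and Hspa8 (-0.19) between the co-cultures (adjusted p = 0.897 and 0.968).

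**Figure D4:**
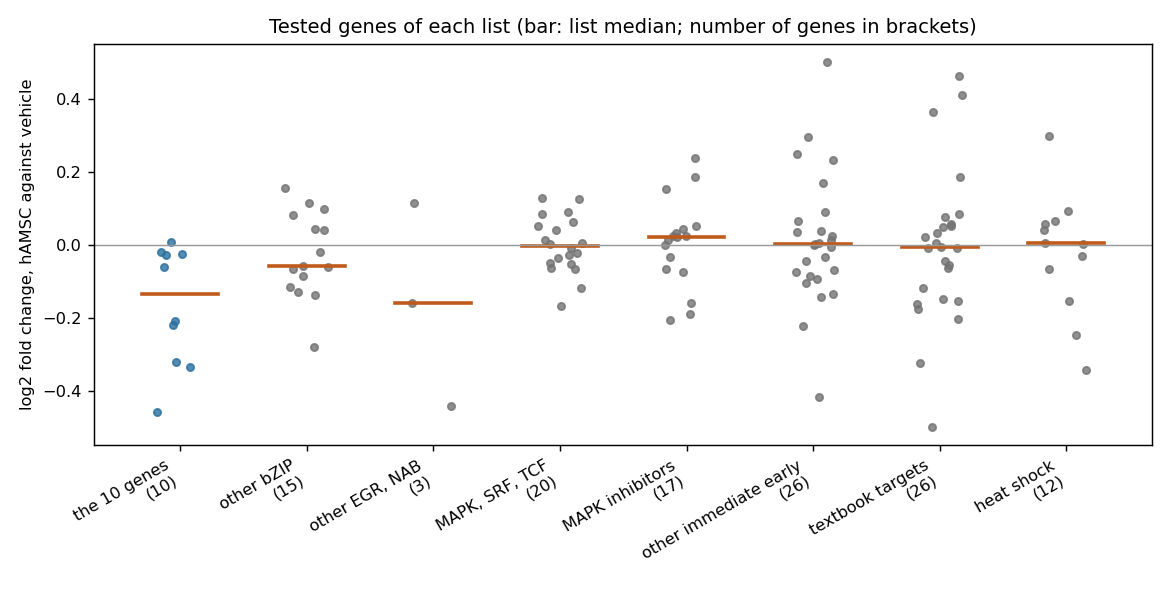
Log2 fold changes of hAMSC against vehicle, with the library set in the model, for the 10 genes and for the tested genes of 7 pathway lists (points), with each list's median (bars) and its number of genes in brackets. The median of the 10 genes is -0.13, and the other medians lie between -0.16, over the 3 EGR and NAB genes, and 0.02.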

How the data were processed

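Polyadenylated RNA of 12 libraries was measured. The authors deposited expected counts per gene, per the file headers, not normalized; 90.1% of the values were whole numbers. FastQC, Trim Galore, STAR, RSEM and limma, with rn6 and Rnor_6.0, are named in the submitters' processing notes; neither versions nor roles come with them. The kit was stranded, per the labels' protocols; whether counting used strand is not stated.

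Counts were rounded and tested with edgeR 4.0.16 (R 4.3.3): filterByExpr (13539 genes kept), TMM scaling (factors 0.973 to 1.03), a robust quasi-likelihood fit of group plus library set over 12 libraries, Benjamini-Hochberg adjustment over all tested genes, threshold 0.05. The set is the lower or higher pair of library numbers in each group and matches the side of the first principal component. Interactions used group-by-set means. CPM use TMM-scaled library sizes; the SE is the log2 fold change over the root of F. The biological coefficient of variation was 9.91% with the set and 38.9% without. The fit was tried on simulated data for hAMSC against vehicle, with changes put only into genes of higher counts. It recovered 72% of changes of 0.5 log2 units and 97% of changes of 1 log2 unit. Smaller changes, such as those fitted for the members with hAMSC, were not simulated. No pair of libraries was a duplicate (chi-square at least 5.98 per degree of freedom over 66 pairs). Members and lists were chosen with earlier results of these data known. All members are named, and of each list the genes that pass or else the 2 of smallest p in each comparison; of the 3 genes most like each member, the nearest is given, with others in some cases. DESeq2 1.42.0 and limma voom 3.58.1 were alternatives.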

Additional observations from a re-analysis of the deposited data

How the results depend on the processing

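No paired analysis was made, because the labels name no animal or culture that would pair libraries of different groups. In the 3 comparisons none of the members passed under any alternative run, except Atf3 for hAMSC against vehicle in the lower-numbered set alone (log2 -0.39). In the interaction of hAMSC with the set, Atf3 passed without the expression filter (0.35). Fosl1, Fos, Atf3 and Egr1 stayed below 0 for hAMSC in all alternatives, and without each library in turn (Fosl1 -0.54 to -0.39, Fos -0.39 to -0.25, Atf3 -0.26 to -0.17, Egr1 -0.25 to -0.18). DESeq2 gave no adjusted p for Fosl1 and Fos in that comparison. The members with an unadjusted p under 0.05 for hAMSC against vehicle, 4 of 10 in the main fit, moved with the settings. They were 3 of 10 in the lower-numbered and 0 of 9 in the higher-numbered set alone. By DESeq2 and by limma voom they were 3 of 10, and without the set in the model 1 of 10. For hAEC against vehicle they were 0 of 10 in the main fit and by DESeq2, and 1 of 10 by limma voom. In the lower-numbered set alone they were 3 of 10 for hAEC, and in the higher-numbered set alone 0 of 9.

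Counts of genes called moved with the settings, and the cause was not tested. For hAEC against vehicle the count was 0, with 10 in a fit of the 2 groups alone, 2 by DESeq2, 1 in the lower-numbered and 6 in the higher-numbered set alone, and 0 to 0 without each library. For hAMSC against vehicle it was 32, with 0 without the set in the model, 9 from the 2 groups alone, 52 without the expression filter, 157 by DESeq2, 12 in a fit that was not robust, 86 in the lower-numbered and 94 in the higher-numbered set alone, and 8 (without Veh 18) to 153 (without hAMSC 15) without each library. For hAEC against hAMSC it was 3, with 0 without the set, 26 without the filter, 79 by DESeq2, 0 in the fit that was not robust, 1 and 58 in the lower-numbered and higher-numbered set alone, and 0 to 50 (without hAMSC 7). For the interaction with the set it was 0 for hAEC against vehicle (309 without the filter, 22 by DESeq2, 0 to 5 without each library). It was 27 for hAMSC against vehicle (533, 102, 4 by limma voom, 17 not robust, 0 without Veh 19 to 158 without hAMSC 16). It was 0 for hAEC against hAMSC (260, 33, 0 to 27 without hAMSC 8).

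Small fold changes of members changed sign. For hAMSC against vehicle these were Fosl2 (-0.024 without the set, -0.000562 with upper quartile scaling, -0.021 by limma voom, -0.081 in the lower-numbered set alone), Junb (0.017 without the set, 0.000491 by limma voom, 0.066 in the lower-numbered set), Egr2 (0.0062 without the set, 0.031 in the lower-numbered set) and Jund (0.077 in the lower-numbered set). For hAEC against vehicle they were Fos (-0.076 in the lower-numbered set), Fosl1 (0.058) and Egr1 (0.057), both in the higher-numbered set. For hAEC against hAMSC they were Junb (-0.010 in the lower-numbered set) and Egr2 (0.00074 in the higher-numbered set). In the interaction of hAEC against vehicle they were Egr2 (-0.00016 with relative log expression scaling), Junb (0.0081 with library size alone) and Jun (-0.0030 by limma voom). Without each library in turn, the ranges that crossed 0 were as follows. In hAEC against vehicle they were Fosb -0.129 to 0.178, Jun -0.0809 to 0.0414, Junb -0.0883 to 0.144 and Jund -0.0373 to 0.171. In the interaction of hAEC against vehicle they were Fosb -0.447 to 0.11, Jun -0.172 to 0.16, Junb -0.367 to 0.273, Egr2 -0.123 to 0.14 and Jund -0.40 to 0.166. In the interaction of hAEC against hAMSC they were Fos -0.167 to 0.0589, Jun -0.251 to 0.0796, Fosl2 -0.109 to 0.247, Junb -0.206 to 0.433, Jund -0.201 to 0.364 and Fosb -1.22 to 0.60. In hAEC against hAMSC they were Jun -0.0207 to 0.102, Junb -0.0678 to 0.16 and Jund -0.00717 to 0.196. In the interaction of hAMSC against vehicle they were Fosl1 -0.137 to 0.248, Fosb -0.787 to 1.03, Fosl2 -0.000762 to 0.473, Jun -0.0113 to 0.177, Junb -0.364 to 0.0743 and Egr2 -0.229 to 0.0345. In hAMSC against vehicle they were Fosl2 -0.0922 to 0.0586, Jund -0.0701 to 0.0529, Junb -0.0819 to 0.0747 and Egr2 -0.061 to 0.0282.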
